A study of Mus musculus with 4 samples.

Results

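The cell surface of the aortic endothelium carries proteases that cut matrix and membrane proteins, together with the inhibitors that hold them in check, and this report describes 8 such genes in 794 endothelial cells (EC) from 4 mouse aortic libraries. The 8 genes are 4 inhibitors (Reck, Timp1, Timp2 and Timp3) and 4 proteases (Mmp2, Mmp14, Adam10 and Adam17), of 18767 genes in the count table. They were chosen on measured values of these libraries, namely their levels, shares of cells and differences between genotype labels, so those values are given as a description. The level of Reck was lower in both libraries labelled Jag1 ECKO, at 49.5 and 54.9 CPM (the member's counts scaled to a common total of counts), than in both labelled Jag1 ECWT, at 106 and 108 CPM. None of the 7 members that could be tested passed the test across all genes in the reported fit, although Reck passed in other settings given below.

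Background on the pathway is as follows. TIMP proteins are secreted inhibitors that bind the active site of metalloproteinases. TIMP1 inhibits membrane-anchored MMPs poorly, TIMP2 blocks MMP14 but at low levels helps it to activate pro-MMP2, and TIMP3 stays bound to the matrix and also inhibits ADAM17. RECK is an inhibitor that is itself anchored in the cell membrane by a lipid and acts on MMP2, MMP14 and ADAM10, and in brain endothelium it is part of a receptor complex for Wnt7 ligands. MMP2 (gelatinase A) is secreted and MMP14 (MT1-MMP) spans the membrane, where it cuts collagen and activates MMP2. ADAM10 and ADAM17 are sheddases, which release the outer part of membrane proteins, and ADAM10 makes the first cut in a Notch receptor once its ligand has bound.

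The cells came from aortas, root to iliac branches, of male C57BL/6J mice aged 1.5 to 3 months that were all given tamoxifen, 2 mg per day for 5 days. The libraries labelled Jag1 ECKO (n = 2) came from Jag1 fl/fl mice with 1 copy of Cdh5-CreERT2, a tamoxifen-activated Cre driven by an endothelial promoter, and those labelled Jag1 ECWT (n = 2) from Jag1 fl/fl mice without Cre, so the floxed allele and the drug were shared and Cre was not. The adventitia was removed, the vessels were digested with enzymes, and live (TO-PRO-3-) CD31+ CD45- cells were placed singly in plate wells by flow cytometry and sequenced by SORT-seq, which tags the 3′ end of each transcript with a molecular identifier, so that a CPM compares numbers of transcript ends and needs no division by gene length. The labels do not say whether the libraries came from separate animals, so spreads and p-values are those between libraries.

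Of 991 deposited cells, 824 had more than 1200 genes. Of these, 794 were EC-like (194, 224, 137 and 239 in Jag1 ECKO replicates 1 and 2 and Jag1 ECWT replicates 1 and 2), and 30 were fibroblast/VSMC-like, where VSMC stands for vascular smooth muscle cell. Each of the 13 EC-like clusters kept at least 8 of 10 endothelial markers. Library totals ran from 903943 to 1850434 estimated transcripts, and the plates reuse well barcodes, with 373 distinct and 86 found in all 4 libraries. The library labelled Jag1 ECKO replicate 1 stood apart: its EC had 4108 counts per cell at the median against 5220 to 6444 in the others, its capillary markers summed to 921 CPM against 204 to 254, and a cluster led by immediate early genes (29 cells) came from it alone. The deleted gene went against the labels, since Jag1 was at 164 and 72.6 CPM in the libraries labelled Jag1 ECKO and at 30.8 and 26.4 CPM in those labelled Jag1 ECWT. Which part of Jag1 is deleted is not given in the sources used here, and a 3′ tag outside it would not check the deletion, so groups are called by their labels below. Whether the labels and libraries match was not tested, and an exchange of labels would turn the direction of every difference between them.

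Sequence upstream of 3 members is shown because these are the members whose levels did not overlap between labels. The 250 bases before each transcript start are from RefSeq (GRCm38.p6), written 5′ to 3′ on the gene's strand, with capitals marking GGGCGG, the core of a GC box bound by SP1, on either strand. The Reck stretch is chr4:43875280-43875529 (plus strand), the Mmp14 stretch chr14:54431348-54431597 (plus strand) and the Timp3 stretch chr10:86300162-86300411 (plus strand). Gene positions given below are from GENCODE, whose starts differ from RefSeq for some members. Timp3 starts there at 86300372, so the end of its stretch, with the marked match, lies within the GENCODE gene. The Timp2 stretch, not shown, also lies within its GENCODE gene.
Reck: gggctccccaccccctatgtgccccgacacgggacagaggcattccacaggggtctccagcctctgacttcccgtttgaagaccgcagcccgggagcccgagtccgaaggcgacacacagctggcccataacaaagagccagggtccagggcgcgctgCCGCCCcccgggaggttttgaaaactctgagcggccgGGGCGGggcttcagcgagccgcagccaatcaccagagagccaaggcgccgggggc
Mmp14: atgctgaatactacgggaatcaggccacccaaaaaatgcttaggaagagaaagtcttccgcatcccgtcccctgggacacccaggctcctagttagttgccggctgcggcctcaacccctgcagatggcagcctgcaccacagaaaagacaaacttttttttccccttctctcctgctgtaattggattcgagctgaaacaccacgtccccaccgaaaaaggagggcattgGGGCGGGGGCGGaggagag
Timp3: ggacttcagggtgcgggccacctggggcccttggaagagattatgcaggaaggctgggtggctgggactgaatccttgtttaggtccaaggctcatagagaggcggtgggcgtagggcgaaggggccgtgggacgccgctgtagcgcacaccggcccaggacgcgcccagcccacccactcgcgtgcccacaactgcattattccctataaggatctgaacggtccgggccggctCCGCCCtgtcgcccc
Reck and Mmp14 held 2 matches each and Timp3 held 1, and 32.7% of 32851 promoter windows of this length held at least 1. Of the other members, Adam10 held 3 matches and Timp1, Timp2 and Adam17 held 1 each. TGGGAA, the letters bound by the Notch partner RBPJ, was found in 1 of the 7 members with an entry, Timp1, and in 21.6% of all windows. CACGTG, an E-box, was found upstream of Adam10 and in 6.02% of windows. These motifs were searched on both strands and no match overlapped one of another motif, a match is only a description, and a missing match says only that these letters are not in this window. Mmp2 had no entry.

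Timp3 and Timp2 were the most abundant members in EC. Timp3 (chr10:86300372-86349506, plus strand, 5 exons, GRCm38) was at 1630, 1731, 2509 and 1941 CPM in Jag1 ECKO replicates 1 and 2 and Jag1 ECWT replicates 1 and 2, a mean of 1953 ± 393 (SD, n = 4 libraries). Timp2 (chr11:118301069-118355740, minus strand, 5 exons) was at 1359, 1286, 1329 and 1345 CPM in the same order, a mean of 1330 ± 31.4. Timp3 was above Timp2 in all 4 libraries, and relative to its mean Timp2 varied least of all the members between them. A count of Timp2 was found in 94.9% to 97.8% of EC and a count of Timp3 in 95.4% to 98.7%.

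The other inhibitors were far lower. Reck (chr4:43875530-43944806, plus strand, 21 exons) had a mean of 79.6 ± 31.7 CPM and was found in 21.6%, 27.2%, 41.6% and 39.3% of EC in the order above. Timp1 (chrX:20870166-20874735, plus strand, 6 exons) was at 3.16, 7.93, 10.7 and 6.26 CPM, from 34 counts over all EC, and a count was found in 1.55% to 5.36% of EC. The levels of Timp1 overlapped between labels, and it was too low for the test across genes, so 7 of the 8 members were tested.

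Adam10 and Mmp2 led the proteases. Adam10 (chr9:70678997-70780229, plus strand, 16 exons) was at 304, 265, 339 and 295 CPM, a mean of 301 ± 30.6, with a count in 68.6% to 75.9% of EC. Mmp2 (chr8:92827291-92853420, plus strand, 13 exons) was at 277, 218, 231 and 251 CPM, a mean of 244 ± 25.5, with a count in 54.6% to 64.4% of EC. Adam10 was above Mmp2 within each library, although their ranges over libraries overlapped.

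Adam17 and Mmp14 were lower. Adam17 (chr12:21323509-21373632, minus strand, 19 exons) was at 69.5, 48.8, 51.0 and 69.5 CPM, a mean of 59.7 ± 11.4, with a count in 24.7% to 27.6% of EC. Mmp14 (chr14:54431612-54445364, plus strand, 10 exons) was at 25.3, 22.6, 38.0 and 38.2 CPM, a mean of 31.0 ± 8.25, with a count in 10.8% to 16.3% of EC. The full order was Timp3, Timp2, Adam10, Mmp2, Reck, Adam17, Mmp14 and Timp1. Neighbours in this order overlapped in range for Adam10 with Mmp2 and for Reck with Adam17, where Reck was the higher in 3 of 4 libraries. Timp1, Timp3 and Adam17 overlap a gene on the other strand, and the counting of strand is not given in the sources used here. These genes are Syn1 for Timp1, Syn3 for Timp3 and Iah1 for Adam17, which had 5, 29 and 98 counts over all EC. On the same strand, Gm27265 overlaps Reck and Cep295nl overlaps Timp2.

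**Figure D1:**
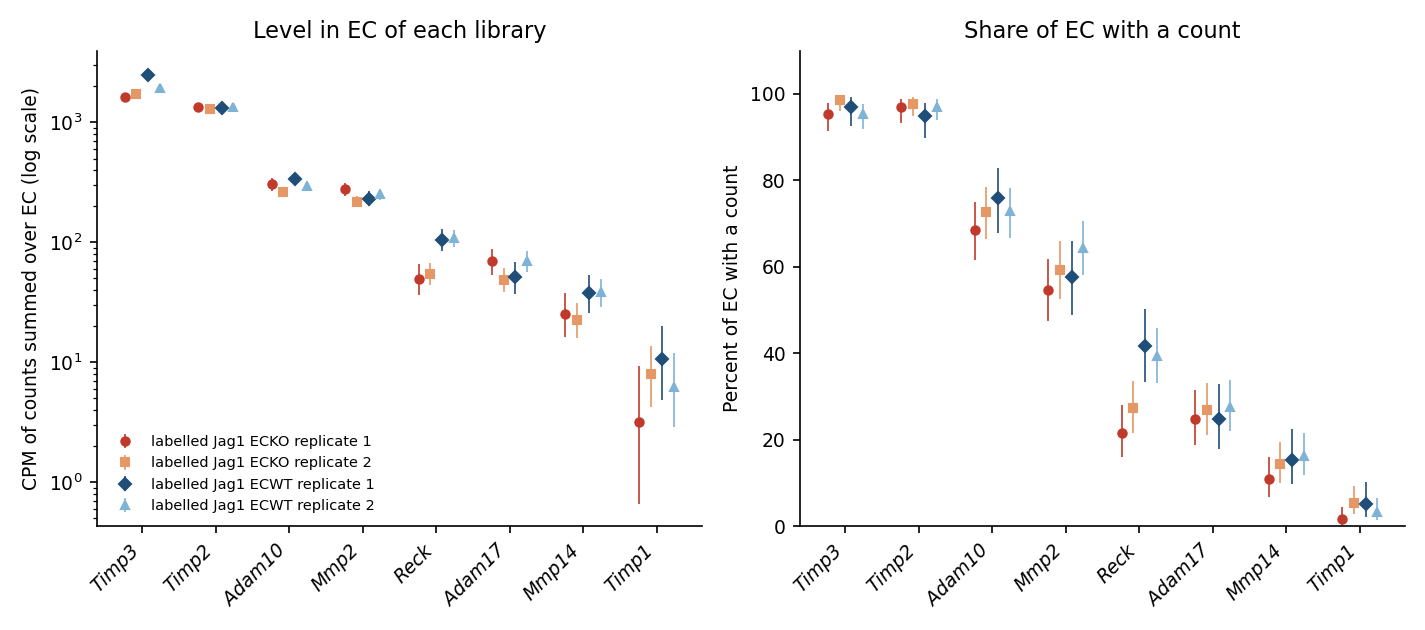
Level (CPM of counts summed over EC, log axis, left) and percent of EC with a count (right) of the 8 members in each library. Points are libraries, bars are exact 95% intervals that cover counting error only. Timp3 and Timp2 lie above 1000 CPM in every library, and Reck shows the lower pair of libraries labelled Jag1 ECKO (49.5 and 54.9 CPM) apart from those labelled Jag1 ECWT (106 and 108 CPM).

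Summed over the 4 inhibitors, EC held 3041, 3080, 3955 and 3400 CPM, against 676, 555, 659 and 653 CPM summed over the 4 proteases. The ratio of inhibitor to protease transcripts was 4.5, 5.55, 6.0 and 5.20, so inhibitor transcripts were the more numerous in every library, and the ratios of the labels overlapped. Timp2 and Timp3 made up 97.4% of the inhibitor counts, and Mmp2 and Adam10 made up 85.7% of the protease counts. In single cells, 96.6% of EC had more inhibitor than protease counts, with medians of 15 and 3.

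Most EC carried transcripts of both kinds, a share that depends on depth. A count of at least 1 inhibitor and at least 1 protease was found in 86.1%, 90.6%, 87.6% and 92.5% of EC, and at equal depth, as described below for Reck, in 78.6% on average. Across the 794 EC, 81 had an inhibitor and no protease count, 1 had a protease and no inhibitor count and 1 had neither. Timp2 and Timp3 were counted together in 93.7% of EC. All 113 EC with a count of Mmp14 also had a count of Timp2, Timp3 or Reck, while 99.7% of all EC had a count of an inhibitor. Of the 113 EC, 85 held Mmp14, Timp2 and Mmp2 together, the transcripts of the complex in which MMP2 is activated. Timp2 and Mmp2 were counted together in 58.1% of all EC on average over libraries. These counts are not at equal depth, so nothing is read from them about the complex. Adam10 and Adam17 were counted together in 166 EC.

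Reck was counted in 192 of the 574 EC with a count of Adam10. By library, 26.3%, 27.6%, 43.3% and 38.5% of the cells with Adam10 had a count of Reck, against 11.5%, 26.2%, 36.4% and 41.5% of the other EC. The share was higher in cells with Adam10 in 3 of 4 libraries, and deeper cells give more counts of both. To take out depth, each EC was thinned to 2833 counts, which left 714 of the 794 EC. At this depth 14.5%, 12.3%, 23.2% and 24.7% of EC had a count of Reck, and the share of EC with both Reck and Adam10 was 9.56% ± 3.34 (SD, n = 4), against 24.8% ± 6.91 unthinned. The product of the Reck and Adam10 shares at this depth was 10.5%.

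Across the 12 pairs of an inhibitor and a protease without Timp1, the thinned share with both was 0.861 to 1.12 times the product of the single shares. The share with both was above the product in all 4 libraries for 2 of the 16 pairs, Timp2 with Adam10 (52.7% against 51.7%) and Timp3 with Adam17 (12.4% against 12%). Spearman's rho over cells, averaged over libraries, lay between -0.0403 and 0.102 for the 28 pairs of members. These values describe cells that share a library and hold few counts per gene, and nothing is read from their departures from the product. With Timp1, which had few counts, the ratio reached 1.71 (Timp1 with Mmp2).

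**Figure D2:**
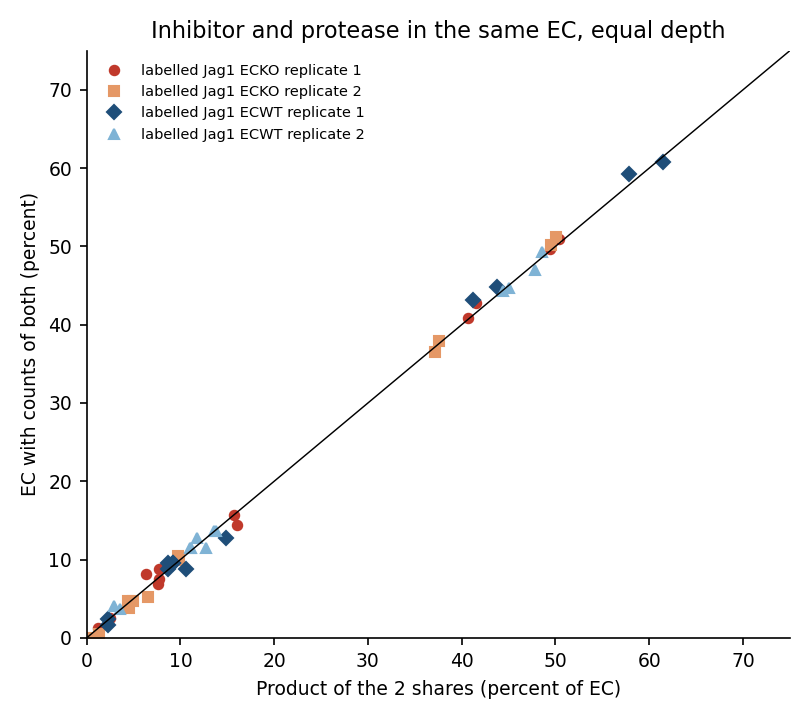
Percent of EC with counts of both an inhibitor and a protease (vertical) against the product of the 2 single shares (horizontal), after each EC was thinned to 2833 counts. Each point is 1 pair in 1 library, 12 pairs without Timp1, and the line marks equality. The points lie along the line.

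The spread of counts over EC is described for the members, which are not ranked by it. At equal depth the variance over the mean of the counts per cell, which is 1 for counting noise alone, was 3.27 to 8.75 for Timp3 over the 4 libraries. It was 1.5 to 1.59 for Timp2 and 1.43 to 1.77 for Mmp2. For Reck it was 0.938 to 1.19 and for Mmp14 0.924 to 1.29, ranges that hold the value for counting noise alone. For Adam10 it was 0.999 to 1.41 and for Adam17 1.13 to 1.19. For the same unevenness this ratio rises with the mean count and lies near 1 at low counts. It therefore cannot order members that differ in level, and values near 1 do not show that cells held a member evenly.

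Levels of the members also differed between EC clusters, which are described without a test because the same cells made the clusters. Timp3 was highest in cluster 5, led by Galnt18, Aqp1, Igfbp5, Sema3d and Lyve1, at 3252 CPM (68 cells), and in cluster 7, led by Pthlh, Hbegf and Klk10, at 2731 CPM (56 cells). Clusters mix the labels unequally: in cluster 7 Timp3 was at 2012 CPM under Jag1 ECKO and 3553 CPM under Jag1 ECWT, and cluster 5 was the highest within each label, at 2692 and 3663 CPM. It was lowest at 649 CPM in cluster 9 (32 cells), led by Lrg1, Fabp4 and Nr2f2, a 5.01-fold range. With both labels pooled, cluster 7 also held the highest Adam10, at 412 CPM, and cluster 0 the lowest, at 199 CPM. Under Jag1 ECWT alone these were cluster 6, at 434 CPM, and cluster 13, at 205 CPM.

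Cluster 13, led by Gpihbp1, Igfbp3 and Cd36, had 5 of 7 capillary markers and is called capillary EC-like (17 cells). Its cells were poor in several members. They had no count of Reck, where 3 counts would be 43.4 CPM, and 1 count of Mmp2, or 14.5 CPM. Timp2 was at 260 CPM there, against 920 to 1641 CPM in the other EC clusters. Timp3 and Adam10 remained at 1214 and 231 CPM. Mmp2 was highest in cluster 12, led by the immediate early genes Nr4a1, Junb and Egr1, at 424 CPM, and next in cluster 3, led by Sfrp2, Thbs1 and Gdf6, at 390 CPM. Cluster 12 holds cells of the Jag1 ECKO label alone, and within that label cluster 3 was the higher, at 506 CPM. Cluster 5, the highest in Timp3, was low in Mmp2 at 120 CPM. Reck ranged from 0 to 99.8 CPM in cluster 3, Adam17 from 28.9 CPM (2 counts, 95% interval 3.50 to 104 CPM) in cluster 13 to 88.4 CPM in cluster 8, Mmp14 from 7.36 CPM (2 counts, 0.891 to 26.6 CPM) in cluster 10 to 53.8 CPM in cluster 12, and Timp1 from 0 to 17.0 CPM in cluster 0. These extremes pool both labels, and for Reck, Mmp14, Adam10, Adam17 and Timp1 another cluster was the highest within at least 1 label, for example cluster 7 for Mmp14 under Jag1 ECWT, at 79.0 CPM.

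**Figure D3:**
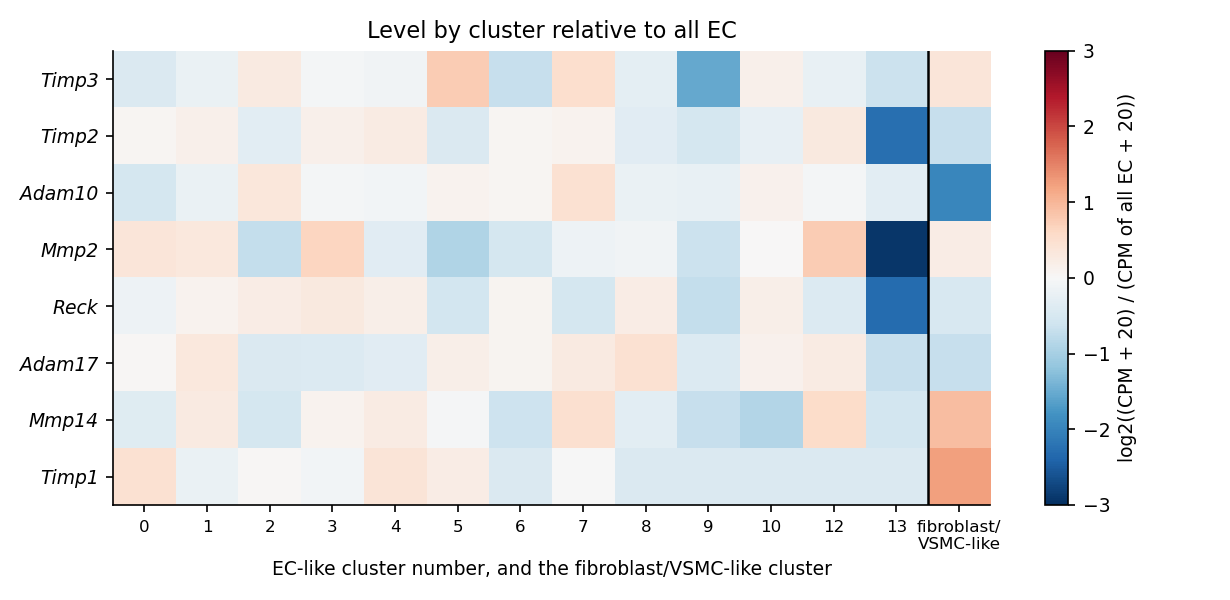
Level of each member in each EC-like cluster and in the fibroblast/VSMC-like cluster, as log2 of (CPM + 20) over (CPM of all EC + 20); red is above and blue below all EC. Cluster 13 is low in Timp2, Mmp2 and Reck, cluster 9 is low in Timp3, and the fibroblast/VSMC-like cells are low in Adam10 and high in Timp1.

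Over 38 units of 1 EC cluster in 1 library, centred within library, Timp2 and Mmp2 varied together most among the members (Pearson's r = 0.66), followed by Timp2 with Mmp14 (r = 0.44) and Mmp2 with Mmp14 (r = 0.43). Units share libraries and cells, so these are descriptions. The genes most like each member over the same units, of 6655 genes at 20 CPM or more, were Gata6 (r = 0.88), Cpe (0.81) and Nfia (0.81) for Timp2, and Smoc1 (0.78), Cops7a (0.76) and Ace (0.74) for Mmp2. For Reck they were Lgals8 (0.77), Dmxl1 (0.72) and Degs2 (0.71), and for Timp3 Tnfaip2 (0.69), Rhbdd1 (0.63) and Ccnd2 (0.62). For Adam10 they were Ptprm (0.75), Cdv3 (0.72) and Arpc2 (0.72), and for Mmp14 Tmem165 (0.72), Drap1 (0.63) and Map1lc3a (0.61). For Adam17 they were Icosl (0.63), Klk8 (0.62) and Scara3 (0.60), and for Timp1 Pkd2 (0.57), Ndufb9 (0.56) and Parp12 (0.55).

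The 30 fibroblast/VSMC-like cells differed from EC in their members. Adam10 was at 61.4 CPM in them and 294 CPM in EC, 4.79-fold higher in EC and higher there in all 4 libraries, although Jag1 ECWT replicate 1 had 0 counts from 3 cells. Timp2, at 817 against 1325 CPM, was likewise lower in all 4 libraries. Adam17 was at 28.9 against 59.3 CPM, but from 2, 5, 0 and 1 counts by library, too few to give a direction in each. Timp1 went the other way, at 43.4 CPM (12 counts) against 6.98 CPM, 6.21-fold higher over all cells. Its counts by library were 1, 8, 2 and 1, so most came from Jag1 ECKO replicate 2, where it was at 57.0 against 7.93 CPM, and the other libraries had too few to give a direction. Without that library Timp1 was at 29.3 against 6.5 CPM, from 4 counts. Mmp14 was at 75.9 against 30.4 CPM, but 17 of its 21 counts came from Jag1 ECKO replicate 2, and without that library it was at 29.3 against 34.4 CPM. The other values over all cells were 285 against 242 CPM for Mmp2, 2468 against 1908 CPM for Timp3 and 50.6 against 78.4 CPM for Reck. Without Jag1 ECKO replicate 2 they were 235 against 253 CPM for Mmp2, 2105 against 1998 CPM for Timp3 and 80.7 against 90.4 CPM for Reck. Classes come from clustering the same cells and hold 3 to 12 cells per library, so no test was made.

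Within those 30 cells, 17 had more fibroblast than VSMC marker counts and 13 the reverse. The 17 cells held all 12 Timp1 counts (89.7 CPM) and had Mmp2 at 501 CPM, Mmp14 at 135 CPM and Timp2 at 1159 CPM, and the 13 cells had Mmp2 at 83.9 CPM, Mmp14 at 21.0 CPM and Timp2 at 496 CPM. Timp3 was at 3283 CPM in the 17 cells and at 1705 CPM in the 13 cells. Adam10 was alike in both, at 59.8 and 62.9 CPM.

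The comparison between genotype labels was designed to ask how EC differ when Jag1 is deleted from the endothelium, but Jag1 itself went against the labels, so it is given as a comparison of labelled libraries only. For each library the EC counts were added up, and the 4 sums entered a quasi-likelihood test in edgeR with Benjamini-Hochberg adjustment over 9485 genes. It called 0 genes (0%) at an adjusted p below 0.05, and DESeq2 also called 0 of 18355 genes. The edgeR count depended on the libraries and the filter: it was 156 without Jag1 ECKO replicate 1, 143 without Jag1 ECKO replicate 2 and 67 with no filter on low counts. At an unadjusted p below 0.05 edgeR had 416 of 9485 genes (4.39%) and DESeq2 had 102 of 18355, and 2 of the 7 tested members, Reck and Mmp14, were among the 416. Reck, Mmp14 and Timp3 (3 of 7 tested members) had both libraries labelled Jag1 ECKO below both labelled Jag1 ECWT, as had 18.8% of all tested genes, and 0 had both above, as had 15.6%. The members were chosen with these differences known, so nothing is read from these counts.

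Reck gave the largest difference among the 7 tested members in the reported fit, and at equal depth the log2 fold changes of Reck and Mmp14 were -0.96 and -0.97. Its 47 and 90 counts in the libraries labelled Jag1 ECKO were 49.5 and 54.9 CPM, and its 89 and 156 counts in those labelled Jag1 ECWT were 106 and 108 CPM. Neither the levels nor their 95% counting intervals overlapped between labels. The log2 fold change was -1.0 ± 0.21 (SE; 95% interval -1.48 to -0.52), with an adjusted p of 0.921 by edgeR's quasi-likelihood test with Benjamini-Hochberg adjustment. At equal depth Reck was at 53.3, 50.2, 98.8 and 105 CPM in the order above. Clusters 0 to 8 (9 clusters, 685 EC) had at least 3 cells in every library, and with each of them given the same weight in every library Reck was at 51.4, 46.3, 121 and 114 CPM. Over all 12 clusters with at least 1 cell in every library (765 EC), which adds clusters 9, 10 and 13, it was at 56.5, 50.4, 113 and 103 CPM. It was lower under the Jag1 ECKO label in 9 of 12 clusters with at least 5 cells of each label, clusters 0 to 8. The same count was 10 for Adam10, 7 for Timp3 and for Adam17, 6 for Mmp2, 5 for Timp2 and for Mmp14 and 3 for Timp1, so nothing particular to Reck is read from it. In cluster 1, for example, Reck had 19 counts in 40 cells (47.7 CPM) under Jag1 ECKO and 58 counts in 60 cells (118 CPM) under Jag1 ECWT. Cluster 10 went the other way, with 21 counts (108 CPM) under Jag1 ECKO and 4 counts (52.0 CPM) under Jag1 ECWT, as did cluster 9, with 7 counts against 0, and cluster 13 had no count under either label.

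Mmp14, the membrane protease that RECK acts on, was at 25.3 and 22.6 CPM in the libraries labelled Jag1 ECKO, from 24 and 37 counts, and at 38.0 and 38.2 CPM in those labelled Jag1 ECWT, from 32 and 55 counts. The labels did not overlap, but the counting intervals did. The log2 fold change was -0.66 ± 0.29 (95% interval -1.30 to -0.01) with an adjusted p of 0.921 by edgeR's quasi-likelihood test. At the same cluster mix the levels were 40.7, 25.1, 42.6 and 43.6 CPM, with Jag1 ECKO replicate 1 close to the Jag1 ECWT pair, and Mmp14 was lower under Jag1 ECKO in 5 of 12 clusters. With the fibroblast/VSMC-like cells included, the log2 fold change of Mmp14 was -0.40.

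Timp3 was at 1630 and 1731 CPM under the Jag1 ECKO label and at 2509 and 1941 CPM under Jag1 ECWT, a log2 fold change of -0.38 ± 0.19 (95% interval -0.80 to 0.05). Its labels overlapped at the same cluster mix, where the levels were 2158, 1742, 2574 and 2091 CPM, and without Jag1 ECWT replicate 1 its log2 fold change was -0.22. The other members overlapped between labels. The log2 fold change was -0.13 ± 0.17 for Adam10 (95% interval -0.52 to 0.25), -0.06 ± 0.26 for Adam17 (-0.65 to 0.54), 0.05 ± 0.18 for Mmp2 (-0.36 to 0.46) and 0.0046 ± 0.17 for Timp2 (-0.37 to 0.38).

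**Figure D4:**
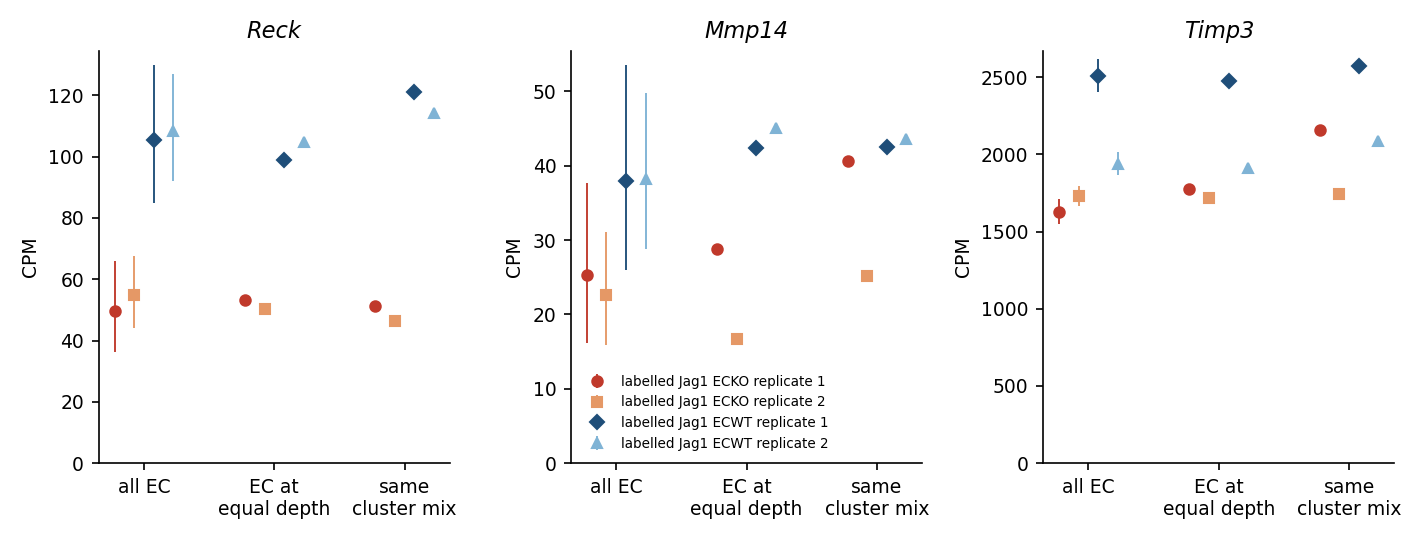
Level (CPM) of Reck, Mmp14 and Timp3 in each library over all EC, over EC thinned to equal depth, and with clusters 0 to 8 each given the same weight in every library. Points are libraries, bars (all EC only) are exact 95% counting intervals. Reck keeps the labels apart in all 3 (clusters 9, 10 and 13 are not in the third), whereas Timp3 overlaps at the same cluster mix.

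**Figure D5:**
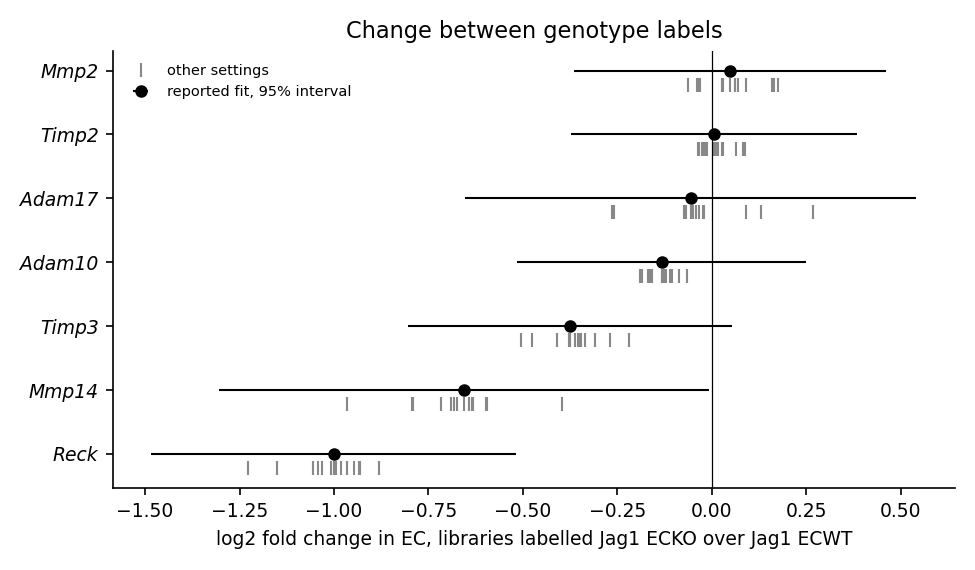
Log2 fold change in EC between the libraries labelled Jag1 ECKO and Jag1 ECWT for the 7 tested members, with its 95% interval (black), and the values under the other settings (grey ticks). The ticks of Reck run from -1.23 to -0.88, and those of Mmp2, Timp2 and Adam17 fall on both sides of 0.

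Listed markers of other cells, summed over EC, differed between the labels. Of the fibroblast and VSMC markers, Mfap5 (235 against 220 CPM) and Pi16 (48.5 against 21.7 CPM) were higher in EC than in the fibroblast/VSMC-like cells. The others were lower in EC. Whether the counts of these markers in EC came from other cells was not tested. In EC, the 10 fibroblast markers summed to 1091 and 1137 CPM under Jag1 ECKO and to 1180 and 1731 CPM under Jag1 ECWT, and the 10 VSMC markers to 684 and 675 CPM against 460 and 423 CPM, with Cnn1 at 0 in Jag1 ECWT replicate 1 and every other marker of both lists above 0 in each library. In the 596 EC with no count of Lum, Col1a1, Dpt, Myh11, Cnn1 or Des, the log2 fold change of Reck was -1.23, that of Mmp14 -0.79 and that of Timp3 -0.35. Without the 29 cells of the cluster led by immediate early genes these were -1.01, -0.79 and -0.38, and without clusters 9 and 13, where capillary markers were high, they were -1.0, -0.64 and -0.34. All of these kept the sign of the values over all EC. A further limit is that Reck passed the threshold with no filter on low counts, with an adjusted p of 0.0373 by edgeR's quasi-likelihood test. That fit called 67 of 18355 genes. The log2 fold change of Reck was -0.88 without Jag1 ECKO replicate 1 and -1.15 without Jag1 ECKO replicate 2, fits that leave 1 library under that label.

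The genes around the members were expressed unevenly. Of 17 other MMP genes in the table, 0 reached 20 CPM in EC and 1 could be tested, so Mmp2 and Mmp14 were the MMPs at that level. Among 10 other ADAM genes, Adam15 was at 260 CPM and Adam9 at 35.9 CPM in EC, and of 19 ADAMTS genes, which are secreted proteases with varied substrates, Adamts10 was at 252 CPM and Adamts1 at 102 CPM. Among 11 other genes listed as inhibitors or related, which include the collagen chaperone Serpinh1 and the protease enhancer Pcolce, Cst3, a cysteine protease inhibitor, was at 3081 CPM and Sfrp1 at 2408 CPM. Timp4, the remaining TIMP, was at 9.65 CPM in EC and 238 CPM in the fibroblast/VSMC-like cells.

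In the reported fit no gene of these lists passed the threshold between labels. Jag1, a shed substrate, passed it in other fits of edgeR's quasi-likelihood test, with an adjusted p of 7.81e-10 with no filter on low counts, 4.93e-05 without Jag1 ECKO replicate 1 and 0.00017 without Jag1 ECKO replicate 2. At an unadjusted p below 0.05, which 4.39% of all tested genes passed, 1 of 7 tested genes of the list of other inhibitors and related genes was higher under Jag1 ECKO (Serpine2, an inhibitor of thrombin and plasminogen activators, at 14.7 and 15.3 CPM against 1.19 and 3.48, and at 593 CPM in the fibroblast/VSMC-like cells), and 1 of 4 other ADAM genes was lower (Adam9, at 37.9 and 9.76 against 48.6 and 57.0 CPM). The summed VSMC markers in EC were higher under the same label as Serpine2, with 5 of 7 tested markers above in both libraries, as had 15.6% of all tested genes, and 1, Tagln, below, as had 18.8%, and their part in its difference was not tested. Of 4 ADAMTS genes 1 was higher (Adamts10, at 332 and 273 against 184 and 214 CPM). Of 15 activators and partners, among them Furin, which activates MMP14 and the ADAMs, and the tetraspanins that carry ADAM10, 1 was higher, Itgb3. The median log2 fold change was 0.16 for the list of other inhibitors and related genes, 0.04 for the other ADAM genes, -0.25 for the ADAMTS genes and -0.01 for the activators and partners, against -0.0013 over all tested genes. Among 25 tested endothelial proteins known to be shed, including Notch1, Cdh5 and Tek, 1 passed an unadjusted p below 0.05, Jag1, and the median was 0.04. In the plasminogen system 1 of 6 did, again Serpine2, with a median of 0.13.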

How the data were processed

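Cells were sequenced by SORT-seq, and the authors aligned reads to GRCm38 with STAR and analysed them with Seurat 3.1. The deposited table holds estimated counts of molecules per gene and cell, corrected for identifiers drawn more than once; these expected counts were rounded to whole numbers. Cells with more than 1200 genes were clustered with Seurat 5.3.0 (2000 variable genes, 12 components, 14 clusters asked for), and the cluster with at least 6 fibroblast and VSMC markers raised 3-fold or more was set apart. No doublet caller was run; wells were sorted as single cells. Sums of EC counts, 1 per library, entered edgeR 4.0.16 (quasi-likelihood test after filterByExpr and TMM scaling, Benjamini-Hochberg, threshold 0.05), with DESeq2 1.42.0 as an alternative, after a check on simulated data. Intervals are exact (95%) and cover counting error only; a count of 0 is bounded at 3 counts. The exact permutation test of 2 against 2 libraries cannot go below p = 0.333 and was not used. The members and gene lists were chosen with earlier results of these data known. Named genes are the members, the genes of the lists, the 3 genes closest to each member and Jag1. Positions are from GENCODE M21.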

Additional observations from a re-analysis of the deposited data

Results flagged for a closer look

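The 167 deposited cells with 1200 or fewer genes entered no reported comparison. Those with more than 1000 genes entered only the alternative setting with that minimum. The 167 cells held counts of 7 members above the level that 3 counts would give, 9.64 CPM. Their levels were 73.9 CPM for Reck, 1156 CPM for Timp2, 1484 CPM for Timp3, 253.7 CPM for Mmp2, 16.1 CPM for Mmp14, 240.9 CPM for Adam10 and 51.4 CPM for Adam17. Timp1 had 1 count. These cells had 1856 counts at the median, and the main clustering gave them no cell class.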

How the results depend on the processing

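No paired analysis was possible because nothing in the labels links libraries of the 2 groups, and replicate numbers only name libraries. The 0 called genes became 67 with no filter on low counts, and 0 to 156 with each library left out (156 without Jag1 ECKO replicate 1, 143 without Jag1 ECKO replicate 2, 1 without Jag1 ECWT replicate 2). The members called went from 0 to 1, Reck, with no filter and over a range of 0 to 1 with each library left out; the lone library of an arm is then assumed to vary like the others, and the cause was not tested. The adjusted p of Reck was 0.0248 to 1.00 over all settings, and its log2 fold change kept its sign.

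Log2 fold changes near 0 turned sign. Timp2 was -0.0212 with total counts in place of TMM, -0.0148 over all cells with more than 1200 genes, -0.0343 with more than 1500 genes per cell, -0.0260 without the cluster led by immediate early genes, and -0.0380 to 0.0638 with each library left out. Mmp2 was -0.0337 at equal depth, -0.0329 without that cluster and -0.0640 to 0.163 with each library left out. Adam17 was 0.0894 at equal depth and -0.265 to 0.266 with each library left out. The settings without that cluster, without capillary clusters and without cells holding fibroblast or VSMC markers, and the same cluster mix, were chosen after seeing the data.

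The mean level of Timp2 was 1297 CPM as a mean over cells, and other levels moved by less than their SD. Shares of EC with counts of both kinds depend on depth: any inhibitor with any protease was found in 89.2% (88.1 to 90.2% with each library left out), 78.6% at equal depth, 64.3% at 2 or more counts and 93.0% with more than 1500 genes. In the same order of settings, Timp2 with Mmp2 was 58.1% (56.6 to 59.6%), 42.2%, 33.6% and 64.3%, and Timp3 with Adam17 25.7% (25.2 to 26.2%), 12.4%, 6.93% and 29.1%. Reck with Adam10 was 24.8% (22.1 to 27.0%), 9.56% and 5.76%, and Reck with Mmp14 5.87% (5.15 to 6.96%), 1.94% and 0.418%.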
